A study of Mus musculus with 9 samples.

Results

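The transcripts described here are those of the tumor necrosis factor (TNF) superfamily ligand gene Tnfsf15, of 7 other ligand genes of the same family and of Tnfrsf11b, which encodes a secreted decoy receptor. These 9 genes are rows of a table of 24062 genes. Tnfsf15 was chosen because its level was higher with both cell cycle inhibitors delivered in the study, so its difference from the control is given as a description, without a test. The other members were listed by family.

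RNA-seq was performed on mouse embryonic fibroblasts of the C57BL/6 strain, cells of connective tissue type taken from mouse embryos into culture. In the p21 group the cells carried a lentivirus that overexpresses p21, in the p16 group a lentivirus that overexpresses p16, and in the control group the empty vector. All cells were harvested on day 4 and all carry the label non-senescent. Each group held 3 libraries. Whether the replicates come from separate cultures or embryos is not stated in the labels. The p-values thus measure the spread between these libraries, which may be technical between replicates 1 and 2. Replicate 3 differs from both in the transcript Xist, as given below.

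Ligands of this family are mostly made as trimeric membrane proteins, and proteases can release several of them in soluble form. They bind receptors that recruit TRAF adaptors and activate NF-kB, and the receptors with a death domain can also start apoptosis. Tnfsf15 encodes TL1A, the ligand of the death domain receptor Tnfrsf25, and is best known for co-stimulating T cells and innate lymphoid cells and for its expression by endothelial and myeloid cells. In fibroblasts and osteoblast lineage cells, Tnfsf11 (RANKL) and its decoy receptor Tnfrsf11b (osteoprotegerin) are known as a pair that sets osteoclast formation.

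Library totals ran from 44455730 to 63152239 counts. Cdkn1a, which encodes p21, stood at 1429 to 1773 CPM (a gene's count relative to the scaled total of its library) in the p21 libraries, at 367 to 379 CPM with p16 and at 349.8 to 375 CPM with the empty vector. Cdkn2a, which encodes p16, reached 1576 to 1927 CPM with p16, against 34.7 to 42.2 CPM with the empty vector. The replicate 3 library of each group carried the X-inactivation transcript Xist at 181 to 251 CPM, against at most 6.96 CPM in replicates 1 and 2. Markers of fibroblasts summed to 45220 to 46792 CPM in the p21 libraries, 43647 to 46993 CPM in the p16 libraries and 38026 to 43045 CPM in the empty vector libraries, here scaled by library totals alone. Of these 10 markers, 4 were higher and 2 lower with p21 (edgeR adjusted p under 0.05). The lower ones were Col3a1 (log2 fold change -0.32) and Pdgfra (-0.99). With p16, 1 was higher and 0 lower. Over all genes tested, 19.8% were higher and 20.1% lower with p21, and 5.8% and 5.56% with p16. A difference in a transcript of bulk cells does not tell more expressing cells from more RNA per cell.

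Tnfsf15 lies on chromosome 4 (63727084 to 63745113, minus strand, GRCm38, GENCODE M21 identifier ENSMUSG00000050395). Its 4 merged exons cover 3347 bases and share none with another annotated gene. The 250 bases before the RefSeq transcript start (GRCm38.p6, chr4:63745060-63745309, minus strand) are shown because Tnfsf15 is the member whose transcript level differed between all 3 groups. The GENCODE gene model begins further upstream, inside this window. Capitals mark a match to the E-box pattern, written CANNTG, the only match among the motifs searched.

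Tnfsf15 promoter: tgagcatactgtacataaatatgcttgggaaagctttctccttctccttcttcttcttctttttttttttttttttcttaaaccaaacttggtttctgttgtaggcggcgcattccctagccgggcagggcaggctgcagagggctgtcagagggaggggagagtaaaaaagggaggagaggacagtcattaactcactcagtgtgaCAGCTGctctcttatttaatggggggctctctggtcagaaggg

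The E-box begins at position -43, counted from -1 at the base before the RefSeq start. It thus lies within the GENCODE gene model, not before it. The searches covered both strands, and the CANNTG pattern occurred in 66.2% of 32851 promoter windows of the RefSeq table. The letters of the NF-kB motif (in 17.6% of windows), of AP-1 TGANTCA (6.75%), of SP1 GGGCGG (32.7%), of the cell cycle homology region TTTGAA (15.99%) and of the TATA box TATAAA (12.4%) are not in this window. These matches are descriptions of letters only. The nearest annotated protein-coding gene on the side of higher coordinates is the ligand gene Tnfsf8, 86195 bases away. On the other side it is Gm11214, 63705 bases away, which was not analysed here. Tnfsf8 had 2, 1 and 2 counts in the p21 libraries, 0, 0 and 4 counts in the p16 libraries and 0 counts in each empty vector library.

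Tnfsf15 was highest with p21, intermediate with p16 and lowest with the empty vector. It was counted 527, 319 and 441 times in p21 replicates 1, 2 and 3, 217, 253 and 183 times in the p16 libraries and 145, 96 and 91 times in the empty vector libraries. In CPM it stood at 8.88, 7.24 and 8.37 with p21, at 4.10, 4.02 and 3.73 with p16 and at 2.62, 1.65 and 1.94 with the empty vector. No library of a group overlapped with a library of another group. Of 14223 genes tested, 3435 were higher in all p21 than in all empty vector libraries and 3550 were lower. The same numbers were 2285 and 2368 for p16 against the empty vector, and 2125 and 2316 for p21 against p16. The means were 8.16 ± 0.840 CPM with p21, 3.95 ± 0.196 CPM with p16 and 2.07 ± 0.497 CPM with the empty vector (SD, n = 3 each). The log2 fold change was 1.98 ± 0.15 (SE) for p21 against the empty vector, with a 95% confidence interval of 1.65 to 2.31, or 3.95-fold. By size this was rank 41 among the rises of 14223 genes tested. For p16 against the empty vector it was 0.93 ± 0.16 (SE), with an interval of 0.59 to 1.28, or 1.91-fold, which was rank 163. These 2 differences share the empty vector libraries, and they chose the gene. Their intervals and ranks take no account of that choice and are not a test.

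**Figure D1:**
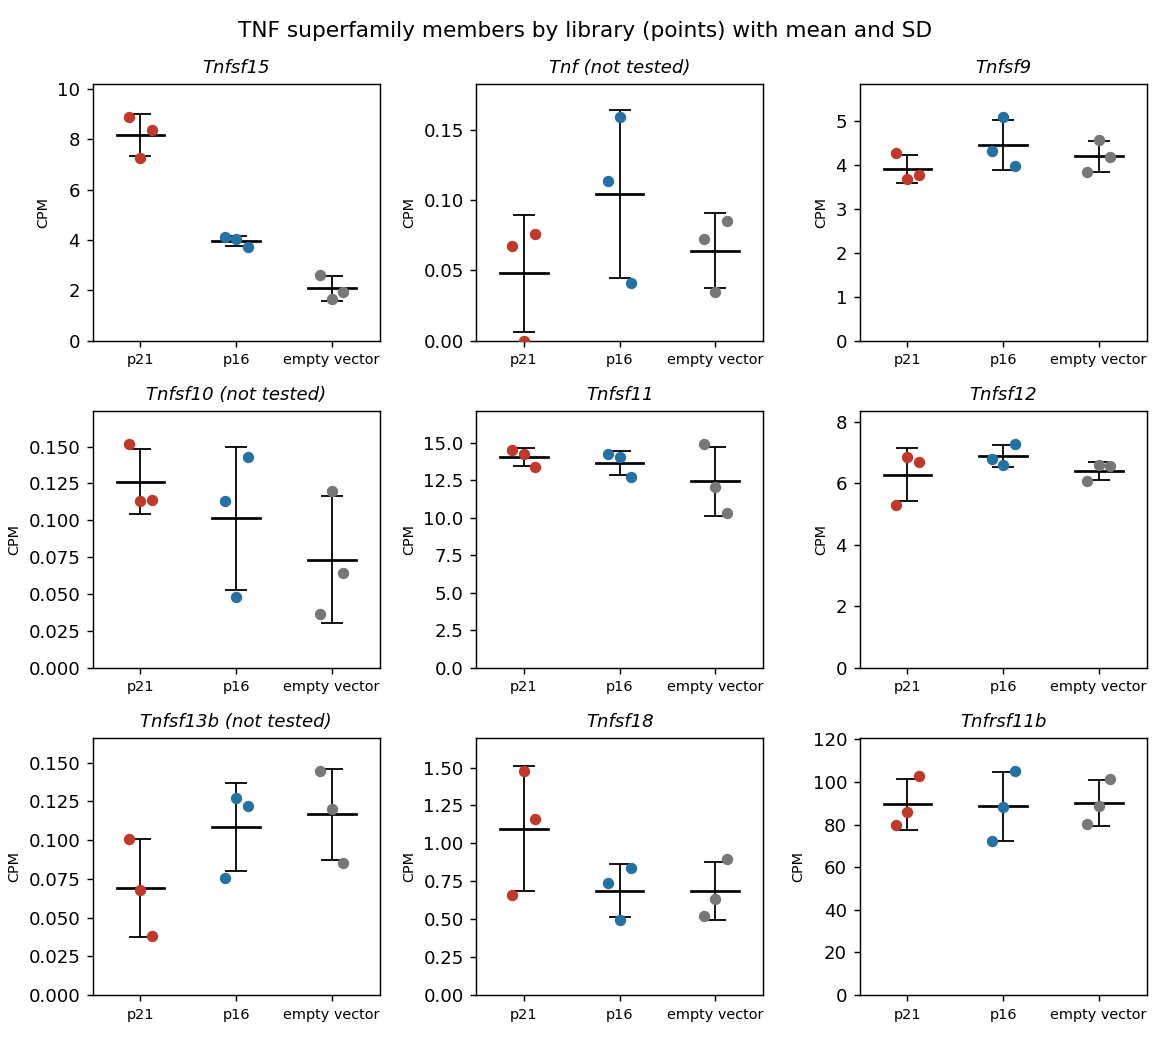
Level of each of the 9 genes in CPM (vertical axes from 0, each with its own scale) in the p21, p16 and empty vector libraries. Points are libraries, and the long bar and the whiskers are the mean and SD of 3 libraries. Tnfsf15 runs from 7.24 to 8.88 CPM with p21, from 3.73 to 4.10 CPM with p16 and from 1.65 to 2.62 CPM with the empty vector, and in the other panels the groups overlap.

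The comparison of p21 with p16 was not itself used to choose Tnfsf15. In the same libraries, it is the difference of the 2 comparisons that were used. Its interval, p and rank take no account of that choice. Tnfsf15 was 2.07-fold higher with p21 than with p16 (log2 fold change 1.05 ± 0.14, 95% confidence interval 0.74 to 1.36, edgeR adjusted p = 0.00055), rank 99 among the rises. In that comparison 13.1% of all genes tested passed the same threshold, 6.15% higher and 6.91% lower with p21. Within replicate numbers 1, 2 and 3, the log2 difference of Tnfsf15 was 1.11, 0.84 and 1.16 for p21 minus p16. It was 1.75, 2.11 and 2.09 for p21 minus the empty vector and 0.64, 1.27 and 0.93 for p16 minus the empty vector. The last 6 values are of the differences that chose the gene.

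Some markers of other cells differed between the groups. Over all genes tested, 19.8% were called higher with p21 and 5.8% with p16. The 18 macrophage and myeloid markers summed to 47.0 to 63.6 CPM with p21, 36.3 to 65.1 CPM with p16 and 28.6 to 45.2 CPM with the empty vector, and none was at 0 in all libraries. Of the 16 tested, 6 were higher with p21 and 0 lower, against 0 called with p16. The 10 endothelial markers summed to 16.2 to 17.8 CPM with p21, 12.1 to 14.8 CPM with p16 and 11.9 to 14.2 CPM with the empty vector, and 1 of 7 tested was higher with p21. The 10 keratinocyte and epithelial markers summed to 5.86 to 6.69 CPM with p21, 3.88 to 4.53 CPM with p16 and 3.02 to 4.04 CPM with the empty vector. Of 4 tested, 2 were higher with p21, Ivl and Lor, and 1 with p16, Ivl. Krt10 and Trp63 did not pass, with log2 fold changes of -0.30 and -0.55 for p21 and 0.03 and -0.98 for p16. Krt1 was at 0 in all libraries. The 9 lymphocyte markers summed to at most 0.297 CPM in any library, and Cd3e, Cd8a, Ms4a1 and Ncr1 were at 0 throughout. The part of such cells in the level of Tnfsf15 was not tested.

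Of the other 8 genes, 5 were abundant enough to be tested. None passed the edgeR test in any of the 3 comparisons, and none had an unadjusted p under 0.05. DESeq2 and limma-voom also called 0 of the 5. The fit with the replicate number as a block called 0 as well, with an unadjusted p under 0.05 for 2 of the 5 for p21 against the empty vector, 0 for p16 and 1 for p21 against p16. For p21 against the empty vector, 39.9% of all genes tested passed, 19.8% higher and 20.1% lower, and for p16 11.4% passed, 5.8% higher and 5.56% lower. With scaling by library totals only, 2173 genes were higher and 3734 lower with p21, 617 higher and 1235 lower with p16, and 735 higher and 1254 lower with p21 than with p16.

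Tnfsf18, on chromosome 1 (161494655 to 161505290), encodes the ligand of the receptor GITR (Tnfrsf18), which co-stimulates T cells. It stood at 0.657, 1.47 and 1.16 CPM in the p21 libraries, 0.737, 0.493 and 0.835 CPM in the p16 libraries and 0.523, 0.635 and 0.897 CPM in the empty vector libraries. Replicates 2 and 3 of p21 lay above all libraries of the other groups and replicate 1 lay among them. The log2 fold change for p21 against the empty vector was 0.67 ± 0.34 (95% confidence interval -0.06 to 1.403, edgeR adjusted p = 0.134). Without p21 replicate 1 it was 0.95 and passed (edgeR adjusted p = 0.0438). For p16 it was 0.0057 ± 0.35 (edgeR adjusted p = 0.995), and for p21 against p16 0.67 ± 0.34 (edgeR adjusted p = 0.225). The level was under 2 CPM in every library, and differences inside these intervals were not excluded.

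Tnfsf11 (RANKL), on chromosome 14 (78277445 to 78308043), stood at 14.6, 14.3 and 13.4 CPM with p21, at 14.2, 14.04 and 12.8 CPM with p16 and at 14.9, 12.1 and 10.3 CPM with the empty vector. The empty vector libraries spread over the range of the other 2 groups. The log2 fold change was 0.18 ± 0.11 for p21 against the empty vector (95% confidence interval -0.06 to 0.41, edgeR adjusted p = 0.226, and 0.0531 with the replicate block). Without empty vector replicate 1 it was 0.33 and passed (edgeR adjusted p = 0.0169). It was 0.14 ± 0.11 for p16 (edgeR adjusted p = 0.478) and 0.04 ± 0.11 for p21 against p16 (edgeR adjusted p = 0.860).

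Tnfrsf11b (osteoprotegerin), on chromosome 15 (54250619 to 54278484), was the most abundant member, at 79.7, 86.0 and 103 CPM with p21, 72.4, 88.5 and 105 CPM with p16 and 80.2, 88.8 and 102 CPM with the empty vector. In each group the replicate 3 library was the highest and the replicate 1 library the lowest. The log2 fold change was -0.01 ± 0.13 for p21 (95% confidence interval -0.28 to 0.27, edgeR adjusted p = 0.963), -0.02 ± 0.13 for p16 (-0.30 to 0.25, edgeR adjusted p = 0.932) and 0.02 ± 0.13 for p21 against p16 (-0.26 to 0.29, edgeR adjusted p = 0.961). The count of Tnfsf11 divided by that of Tnfrsf11b was 0.183, 0.166 and 0.130 in the p21 libraries, 0.197, 0.159 and 0.122 in the p16 libraries and 0.186, 0.136 and 0.102 in the empty vector libraries. The groups overlapped. The exact permutation p, two-sided, was 0.7 for p21 and 0.7 for p16 against the empty vector and 1 for p21 against p16, where 0.1 is the smallest that 3 against 3 libraries allow. Paired by replicate number, the exact p was 0.5, 0.25 and 1, where 0.25 is the smallest possible, and the ratio was higher in 2, 3 and 2 of 3 pairs. The 8 osteoblast markers summed to 415 to 471 CPM with p21, 448 to 533 CPM with p16 and 473 to 496 CPM with the empty vector. Of 4 tested, 1 was lower with p21, beside 20.1% of all genes tested. The part of osteoblasts in these levels was not tested.

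Tnfsf9, on chromosome 17 (57105325 to 57107757), encodes the ligand of the T cell co-stimulatory receptor Tnfrsf9. It had 4.28, 3.67 and 3.76 CPM with p21, 4.33, 5.09 and 3.97 CPM with p16 and 3.84, 4.56 and 4.19 CPM with the empty vector. The groups overlapped, with log2 fold changes of -0.10 ± 0.13 for p21 (95% confidence interval -0.38 to 0.17), 0.09 ± 0.13 for p16 (-0.18 to 0.36) and -0.19 ± 0.13 for p21 against p16 (-0.47 to 0.08). A share of 14.9% of its exon bases lies opposite the predicted gene Gm11110, and the library kit keeps no strand. Tnfsf12 (TWEAK), on chromosome 11 (69686250 to 69695849), had 5.29, 6.87 and 6.69 CPM with p21, 6.78, 6.58 and 7.27 CPM with p16 and 6.06, 6.60 and 6.56 CPM with the empty vector. Its log2 fold changes were -0.03 ± 0.11 for p21 (-0.27 to 0.20), 0.10 ± 0.11 for p16 (-0.13 to 0.34) and -0.13 ± 0.11 for p21 against p16 (-0.37 to 0.10). It shares 48.3% of its exon bases with an annotated read-through gene on its strand, which had 1 count over all libraries. How reads on the shared bases were counted is not given, which limits the level of Tnfsf12 beside that of other genes.

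**Figure D2:**
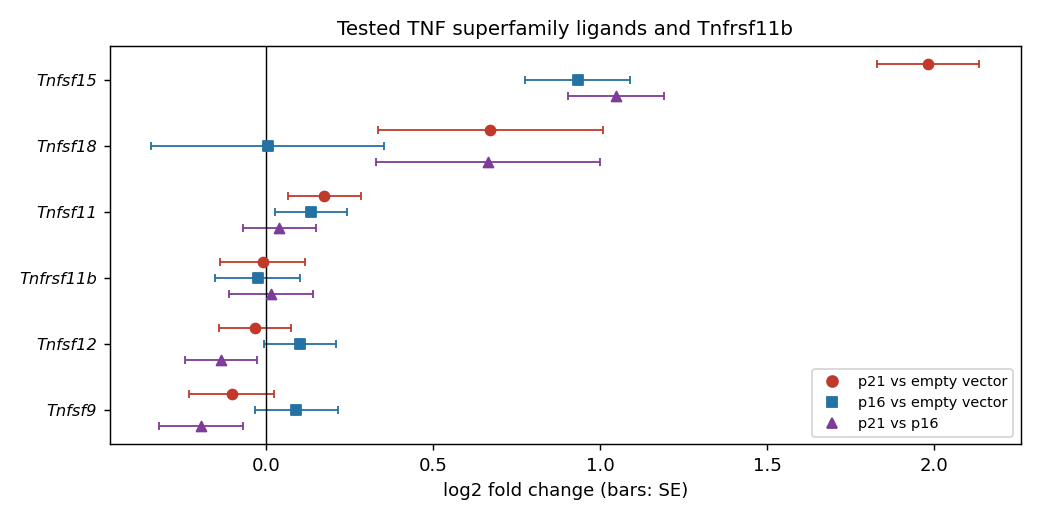
Log2 fold change (horizontal axis) with SE bars of the 6 members tested, for each inhibitor against the empty vector and for p21 against p16. The 95% confidence intervals are not drawn. Those of the 5 members other than Tnfsf15 include 0, and that of Tnfsf15 for p21 against p16 runs from 0.74 to 1.36. The values of Tnfsf15 against the empty vector chose the gene and are a description, not a test.

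The remaining 3 members were close to the limit of counting. Tnf itself, on chromosome 17 (35199381 to 35202007), had 4, 0 and 4 counts in the p21 libraries, 6, 10 and 2 in the p16 libraries and 4, 2 and 4 in the empty vector libraries. Tnfsf10 (TRAIL), on chromosome 3 (27317028 to 27342427), binds the death receptor Tnfrsf10b. It had 9, 5 and 6 counts with p21, 6, 3 and 7 with p16 and 2, 7 and 3 with the empty vector. Tnfsf13b (BAFF), on chromosome 8 (10006467 to 10039072), is a survival factor for B cells. It had 6, 3 and 2 counts with p21, 4, 8 and 6 with p16 and 8, 7 and 4 with the empty vector. All 3 were below the filter, and tested without it they had edgeR adjusted p-values of 0.514 to 0.987. The smallest difference detectable at these counts was not worked out.

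Per kilobase of exon, the scale on which genes can be set beside each other, Tnfrsf11b averaged 31.8 CPM with p21, 31.4 CPM with p16 and 32.0 CPM with the empty vector. Tnfsf11 followed at 6.29, 6.12 and 5.56 CPM per kilobase and Tnfsf12 at 4.15, 4.54 and 4.23 in the same groups. Tnfsf9 averaged 3.03, 3.46 and 3.25 CPM per kilobase, and Tnfsf15 2.44, 1.18 and 0.618. Tnfsf15 thus kept the fifth place in every group, but was nearest to Tnfsf9 with p21. Tnfsf18 stood at 0.531, 0.333 and 0.332 CPM per kilobase and Tnf at 0.029, 0.064 and 0.039.

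**Figure D3:**
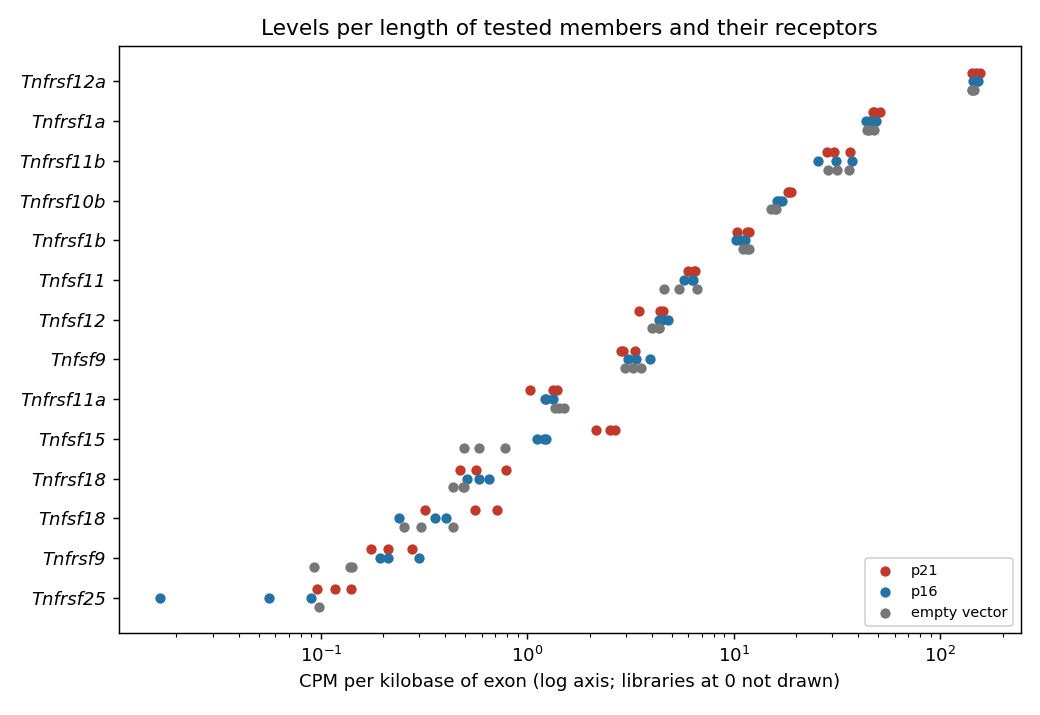
CPM per kilobase of exon (horizontal log axis) of the 6 tested members and of receptors of the members, as points per library for p21, p16 and the empty vector. The receptors are Tnfrsf25, Tnfrsf1a, Tnfrsf1b, Tnfrsf9, Tnfrsf10b, Tnfrsf11a, Tnfrsf12a and Tnfrsf18. Tnf, Tnfsf10, Tnfsf13b and libraries at 0 are not drawn. Tnfrsf11b averages 31.8 with p21 and Tnfsf15 2.44 with p21, against 32.0 and 0.618 with the empty vector.

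Of 11 other ligand genes of the family, 1 was abundant enough to test. Eda, ectodysplasin, averaged 7.29 CPM with p21, 7.71 CPM with p16 and 7.36 CPM with the empty vector, and did not pass in any comparison (edgeR adjusted p of 0.681 to 0.922). Fasl, Cd40lg and Cd70 had 0 counts in all 9 libraries, which allows up to 3 counts in each.

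The receptor of Tnfsf15, Tnfrsf25, was counted 13, 14 and 14 times with p21, 2, 8 and 10 times with p16 and 0, 13 and 0 times with the empty vector. The high empty vector library overlapped with the other groups. The log2 fold change for p21 against the empty vector was 1.70 ± 0.86 (edgeR adjusted p = 0.135). It was called by limma-voom (adjusted p = 0.0131), in the blocked edgeR fit (adjusted p = 0.0334) and without empty vector replicate 2 (edgeR adjusted p = 0.00383). For p16 the edgeR adjusted p was 0.752, and for p21 against p16 it was 0.409. The receptors of the other members were mostly expressed. Tnfrsf12a, which binds Tnfsf12, averaged 287 CPM with p21, 287.0 CPM with p16 and 276 CPM with the empty vector, and Tnfrsf1a, which binds TNF, 126, 119 and 118 CPM in the same groups. Neither passed the test, although Tnfrsf1a did for p21 with the replicate block (edgeR adjusted p = 0.0294). Tnfrsf9, the receptor of Tnfsf9, averaged 0.599 CPM with p21, 0.639 CPM with p16 and 0.338 CPM with the empty vector, with log2 fold changes of 0.81 ± 0.33 for p21 (edgeR adjusted p = 0.0645) and 0.91 ± 0.32 for p16 (0.0910). Tnfrsf11a, the signalling receptor of Tnfsf11, averaged 7.49 CPM with p21, 7.51 CPM with p16 and 8.54 CPM with the empty vector, with log2 fold changes of -0.19 ± 0.11 for each inhibitor (edgeR adjusted p = 0.195 for p21 and 0.320 for p16). Tnfrsf18, the receptor of Tnfsf18, had a log2 fold change of 0.35 ± 0.25 for p21 (edgeR adjusted p = 0.290) and shares 27.2% of its exon bases with Gm16008 on the opposite strand. Tnfrsf1b, the second receptor of TNF, had -0.03 ± 0.057 for p21 (edgeR adjusted p = 0.709). These 4 did not pass for p16 or for p21 against p16 either. Tnfrsf13b, Tnfrsf13c and Tnfrsf17, which bind Tnfsf13b, were below the filter.

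Of 27 receptor genes listed, 21 were tested, and 7 rose and 0 fell with p21 (11 and 0 with the replicate block). Over all genes tested, 19.8% rose with p21 in the fit without the block, and the block called more genes. The median log2 fold change of the receptors was 0.25 against 0.0011 over all genes tested. Tnfrsf23, a decoy receptor for TRAIL in the mouse, stood at 108.0 ± 3.4 CPM with p21, 85.9 ± 2.87 CPM with p16 and 66.1 ± 2.83 CPM with the empty vector (SD, n = 3 each). Its groups did not overlap, a separation common over all genes tested, as given above. Its log2 fold change was 0.71 ± 0.045 with p21 (edgeR adjusted p = 2.83e-07), 0.38 ± 0.045 with p16 (edgeR adjusted p = 0.00053) and 0.33 ± 0.045 for p21 against p16 (edgeR adjusted p = 0.0005). Its neighbours Tnfrsf22 and Tnfrsf26 on chromosome 7 are related in sequence, and the counting could have split reads among the 3. Cd40, a receptor that activates antigen-presenting cells, averaged 2.09 CPM with p21, 1.75 CPM with p16 and 0.950 CPM with the empty vector, a log2 fold change of 1.14 ± 0.19 with p21 (edgeR adjusted p = 0.00049). The myeloid marker sums were 47.0 to 63.6 CPM with p21, above the 28.6 to 45.2 CPM with the empty vector. With p16 they ran from 36.3 to 65.1 CPM and overlapped with the empty vector. The part of myeloid cells in the Cd40 level was not tested. Relt (0.33 ± 0.053, edgeR adjusted p = 0.00037), Tnfrsf10b, the receptor of Tnfsf10 (0.24 ± 0.040, 0.00046), and the death receptor gene Fas (0.45 ± 0.098, 0.00283) also rose with p21. So did the neurotrophin receptor gene Ngfr (1.39 ± 0.34, 0.00625) and Tnfrsf22 (0.36 ± 0.10, 0.0146), but leaving out empty vector replicate 2 (edgeR adjusted p = 0.0661) or p21 replicate 1 (0.0582) ended the call of Tnfrsf22.

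With p16, 2 of the 21 receptors rose and 0 fell (4 and 0 with the block), and the median was 0.17 against 0.0017 over all genes. These were Tnfrsf23 and Cd40 (0.88 ± 0.19, edgeR adjusted p = 0.0127), the call of Cd40 being lost without empty vector replicate 1 (edgeR adjusted p = 0.0557). Between p21 and p16, 2 receptors were higher with p21 and 0 lower (4 and 0 with the block), with a median of 0.08 against -0.0019 over all genes. These were Tnfrsf23 and Tnfrsf10b (0.16 ± 0.039, edgeR adjusted p = 0.0192), and Tnfrsf10b was not called once p21 replicate 2, p16 replicate 1 or p16 replicate 3 was left out (edgeR adjusted p up to 0.0682). The counts for receptors without the block stand beside the share of all genes called in the same direction. This share was 19.8% with p21, 5.8% with p16 and 6.15% for p21 against p16. The block called more of all genes in each comparison, so its counts are not to be set beside these shares. The counts are a description of the list.

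**Figure D4:**
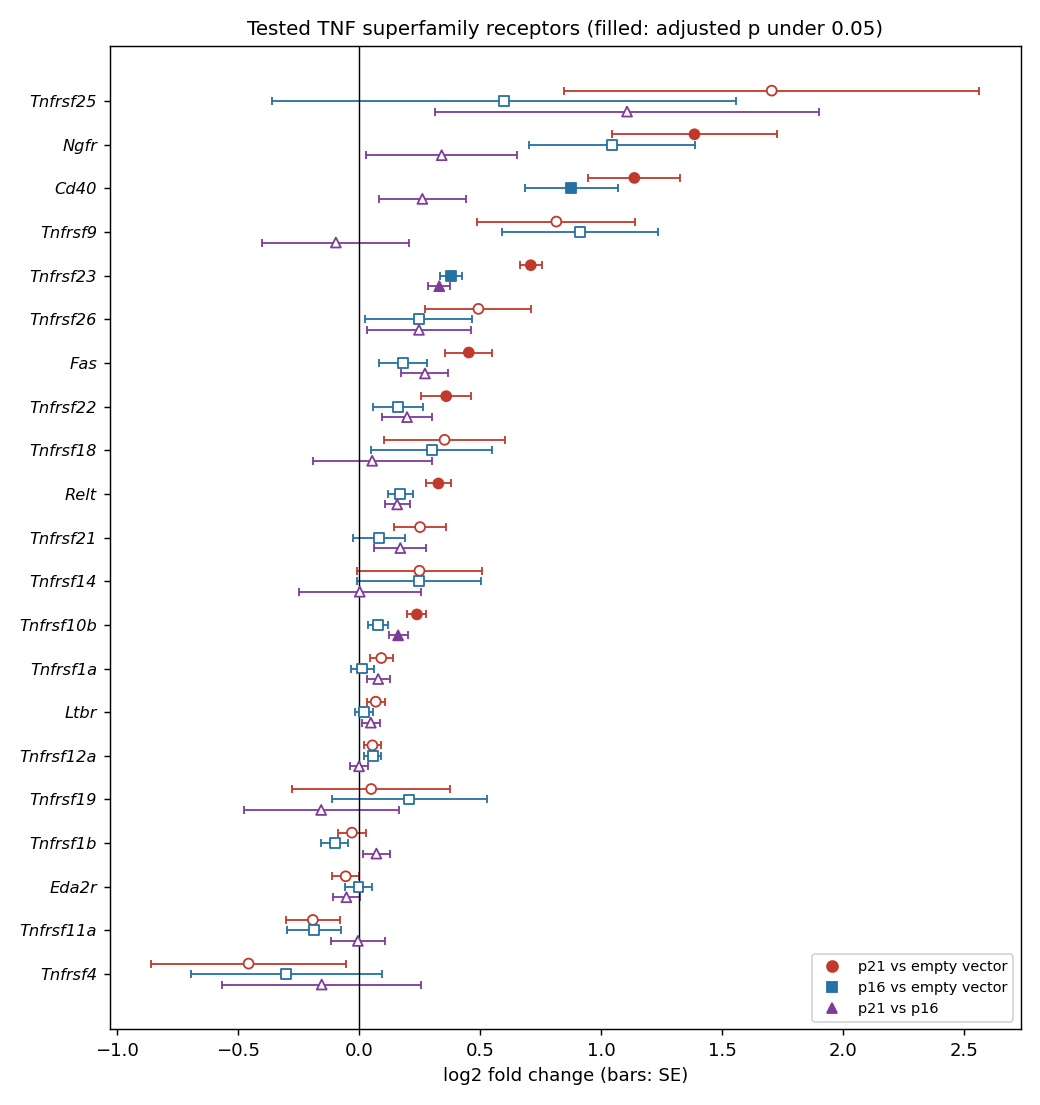
Log2 fold change with SE bars of the receptor genes tested, for p21 and p16 against the empty vector and for p21 against p16. Filled points have an edgeR adjusted p under 0.05. Against the empty vector, 7 of 21 are filled with p21, all to the right of 0, and 2 of 21 with p16.

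All 24 adaptors and regulators of TNF receptor signalling were tested. With p21, 6 rose and 2 fell, beside 19.8% higher and 20.1% lower over all genes tested. The replicate block, which called more of all genes in each comparison, gave 7 and 3. Scaling by library totals only gave 4 and 5. The block added Traf5, higher by 0.19 (edgeR adjusted p = 0.0267), and Fadd, which was lower (-0.26, edgeR adjusted p = 0.0165), both named after their values were seen. The median log2 fold change was 0.0084. The ubiquitin-editing enzyme gene Tnfaip3, which restrains NF-kB signalling, averaged 44.1 CPM with p21, 34.2 CPM with p16 and 29.9 CPM with the empty vector (0.56 ± 0.048 for p21). Cflar, an inhibitor of caspase-8 activation, averaged 119 CPM, 106 CPM and 86.2 CPM in the same groups (0.46 ± 0.055 for p21). Tank (0.22 ± 0.044, edgeR adjusted p = 0.00154) and Tradd (0.25 ± 0.072, 0.0160) were also higher and Traf1 was lower (-0.59 ± 0.16, 0.0114). The call of Tradd was lost without p21 replicate 1 (edgeR adjusted p = 0.0783). With p16, Cflar (0.29 ± 0.055, edgeR adjusted p = 0.00557) and Tnfaip3 (0.20 ± 0.048, 0.0224) rose and 0 fell (3 and 1 with the block), beside 5.8% higher over all genes. Leaving out empty vector replicate 1 or 3, or p16 replicate 2 or 3, ended the call of Tnfaip3 (edgeR adjusted p up to 0.0936). Between p21 and p16, 1 passed, Tnfaip3, higher with p21 by 0.37 ± 0.048 (edgeR adjusted p = 0.00037), beside 6.15% higher over all genes. Cflar, at 0.17 ± 0.054 (edgeR adjusted p = 0.0566), was called by DESeq2 (adjusted p = 0.0229), by limma-voom (0.0470) and in the blocked edgeR fit (0.0013).

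Of 8 genes for proteases and regulators that shed membrane ligands, 2 rose and 1 fell with p21, with a median of 0.030, beside the same 19.8% and 20.1% over all genes. Scaling by library totals only gave 1 and 1. With p16, 1 rose, Adam9, beside 5.8% over all genes, and the replicate block added Furin, a proprotein convertase (0.09, edgeR adjusted p = 0.0457). Adam9 averaged 406 CPM with p21, 323 CPM with p16 and 292 CPM with the empty vector (0.48 ± 0.031 for p21 and 0.15 ± 0.031 for p16). Its call with p16 was lost without empty vector replicate 2 (edgeR adjusted p = 0.0594). Adam17, the protease that releases TNF, averaged 57.3 CPM with p21, 63.2 CPM with p16 and 65.0 CPM with the empty vector (-0.18 ± 0.042 for p21, edgeR adjusted p = 0.00415). Between p21 and p16, Adam9 was higher and Adam17 lower with p21, beside 6.15% higher and 6.91% lower over all genes. Adam17 (edgeR adjusted p = 0.0436) was called in only 6 of 14 alternative settings. Sppl2a, an intramembrane protease, also passed with p21 (0.13 ± 0.047, edgeR adjusted p = 0.0434), a call that ended once any empty vector library, p21 replicate 1 or p21 replicate 3 was left out (edgeR adjusted p up to 0.130).

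The 5 genes whose log2 level was most like that of Tnfsf15 over the 9 libraries, among 10905 compared, were Col8a1 (Pearson r = 0.993), Msrb1 (0.993), Mcfd2 (0.991), Bag2 (0.990) and Golim4 (0.989). The libraries fall into the 3 groups that the inhibitors define, so r mainly describes an order of the groups that these genes share, and no p is given. Within groups r was 0.861, 0.842, 0.802, 0.814 and 0.799 for the same genes. The genes were picked by r over the same libraries, so these values partly follow from that choice. Msrb1 encodes a methionine sulfoxide reductase, Mcfd2 a cofactor of cargo export from the endoplasmic reticulum, Bag2 a co-chaperone and Golim4 a Golgi membrane protein. Col8a1, a collagen VIII chain, averaged 539.5 ± 8.36 CPM with p21, 464 ± 0.681 CPM with p16 and 408 ± 13.3 CPM with the empty vector (SD, n = 3 each). Its log2 fold changes of 0.40 ± 0.030 with p21 and 0.18 ± 0.030 with p16 were smaller than those of Tnfsf15.

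**Figure D5:**
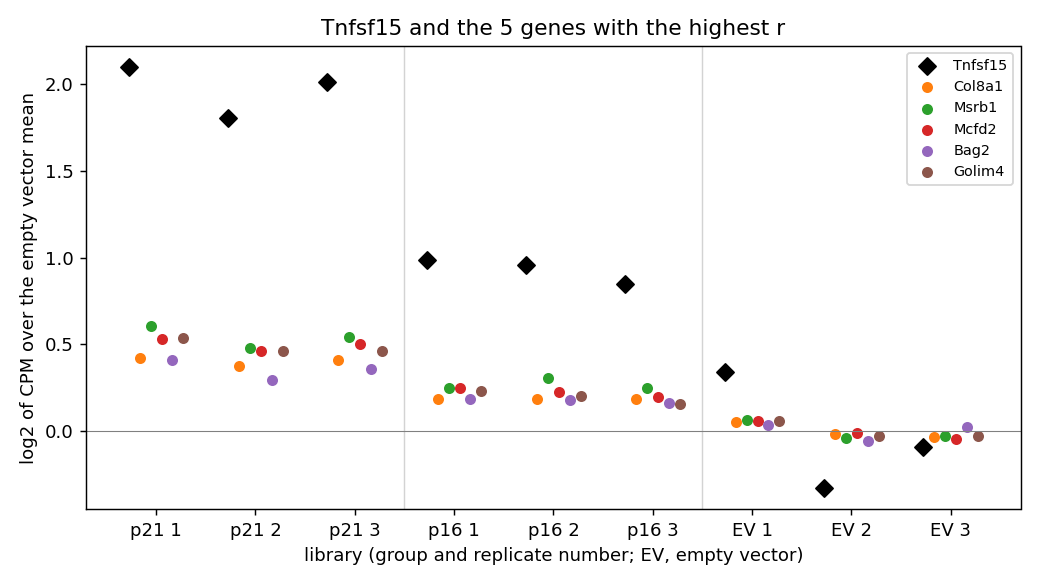
Log2 of CPM over the empty vector mean (vertical axis) in each of the 9 libraries for Tnfsf15 (diamonds) and the 5 genes with the highest r (circles), grouped by p21, p16 and empty vector. All 6 genes are highest in p21 and lowest in empty vector libraries, with Tnfsf15 spread over a wider range.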

How the data were processed

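Counts per gene were deposited by the authors as raw whole numbers in 1 table, without normalization. Per the submitters' processing notes, TopHat2 2.0.14, Bowtie2 2.2.6 and featureCounts 1.4.6 (Subread) were used with the mm10 build; the annotation and strand setting are not given in the sources used here. The labels' kit, TruSeq RNA v2, keeps no strand.

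Counts of all 9 libraries were fitted together in R 4.3.3 with edgeR 4.0.16 (filterByExpr, minimum count 10 and minimum total 15, TMM scaling, quasi-likelihood test, 6 residual degrees of freedom, two-sided). P-values were adjusted by Benjamini-Hochberg over all 14223 genes tested, with a threshold of 0.05, and each SE was obtained as the size of the log2 fold change over the root of its F statistic. CPM used TMM-scaled totals. The biological coefficient of variation was 7.30%. Among counts of 1 to 20, 65.6% to 68.0% were even, against 49.6% to 51.1% of counts from 101 to 2000, so low counts are not taken as independent molecules and intervals cover counting and replicate error only. Names, coordinates, lengths and overlaps came from GENCODE M21, the promoter from RefSeq (GRCm38.p6). The fit was checked on simulated data. Alternatives were DESeq2 1.42.0, limma-voom (limma 3.58.1), other scalings, no filter, only the 2 groups compared, replicates 1 and 2 alone, a replicate block, and each library left out. Figures used Python 3.11.15, pandas 2.3.3 and matplotlib 3.10.9.

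Once group means were removed, libraries sharing a replicate number correlated at r = 0.126 to 0.361 and others at -0.246 to 0.106, and all 9 correlated best with their own number, so the numbers pair the samples. The members, the lists and the naming rule were chosen with earlier results of these data known. The rule names all 9 members, both delivered genes, the receptors of the members, up to 5 genes of each other list with the smallest adjusted p, the nearest protein-coding neighbours of Tnfsf15 and the 5 genes most like it. The value of 1 lymphocyte marker is not reported here.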

Additional observations from a re-analysis of the deposited data

How the results depend on the processing

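Tnfsf15 kept its direction and its call between p21 and p16 in all 14 alternatives, at 0.98 to 1.12 on the log2 scale (adjusted p 1.12e-09 to 0.0045). These values take no account of the choice of Tnfsf15. Its log2 fold change was 1.83 to 2.19 for p21 and 0.78 to 1.14 for p16 against the empty vector. Of the 252 values of the 6 tested members under the alternatives, 233 were kept, 2 newly passed the threshold and 17 turned their sign, none of them of Tnfsf15. Kept means the same direction and side of the threshold. For Tnfsf15 against the empty vector it means the same direction and a shift under the SD between replicates, with no threshold. The replicate block raised the genes called to 3044 from 1616 for p16 and to 3214 from 1858 for p21 against p16; it gave 6856 for p21 and changed no member's call. Leaving out 1 library gave 4617 to 5409 genes for p21, 759 to 1167 for p16 and 1074 to 1782 for p21 against p16, with fewer samples in each fit.

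The sign turned for Tnfsf18 with p16 by library totals (-0.025) and limma-voom (-0.00024), and over the fits without 1 library it ran from -0.16 to 0.23. For Tnfrsf11b the range without 1 library was -0.12 to 0.083 with p21, -0.16 to 0.099 with p16 and -0.11 to 0.15 for p21 against p16, and by library totals the last was -0.0026. The range was -0.10 to 0.080 for Tnfsf12 with p21, -0.017 to 0.17 for Tnfsf9 with p16 and -0.0071 to 0.075 for Tnfsf11 for p21 against p16. The difference in the Tnfsf11 to Tnfrsf11b ratio ran from -0.00156 to 0.0406 for p21, from -0.00216 to 0.0400 for p16 and from -0.0181 to 0.0194 for p21 against p16. In each case the cause was not tested. Depth limits Tnf, Tnfsf10, Tnfsf13b, Tnfsf18 and Tnfrsf25.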
